A study of Rattus norvegicus with 20 samples.

Results

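The genes described here are 38 members of the solute carrier superfamily, and of the scaffolds that share its symbol, in the choroid plexus of female Zucker rats. They are all identifiers whose symbol in the study's supplementary lists began with Slc, after the bicarbonate, cation-chloride, peptide and monocarboxylate families (Slc4, Slc12, Slc15 and Slc16) and 7 single genes, such as the iodide carrier Slc5a5, had been set aside. Of the 32883 gene identifiers in the data, 2616 could be paired with a symbol and 60 of these began with Slc, so 22 were left out, 13 of which stand in the study's own lists of changed genes. The 38 members were sorted by what they carry into 4 organic anion carriers, 5 amino acid carriers, 3 vitamin carriers, 6 metal and heme carriers, 2 sulfate and calcium carriers, 9 mitochondrial and peroxisomal carriers, 4 carriers of sugars, nucleotides and fatty acids, 3 polyamine and less studied carriers and 2 scaffolds.

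The choroid plexus is the tissue of the brain ventricles that secretes cerebrospinal fluid. Its epithelial cells sit between blood and fluid, take up vitamins, trace metals and sulfate from the blood side for delivery to the brain, and clear amino acids and organic anions from the fluid. Solute carriers are the membrane proteins that do this, most of them by exchanging or co-transporting a solute with another. Most carriers of the Slc25 family sit in the inner mitochondrial membrane and supply the adenine nucleotides, phosphate and fuel on which such transport depends.

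RNA of the lateral and 4th choroid plexus was sequenced as 1 library per rat in 20 female rats aged 16 weeks. The first cohort held 6 lean rats (+/fa) and 6 obese rats (fa/fa) that were not injected. The second cohort held 4 lean control rats, given 100 µl of sesame oil under the skin 2 times weekly over the last 4 weeks, and 4 obese + TT rats, given 1 mg of testosterone propionate in that volume of oil on the same schedule. The fa allele is a defect of the leptin receptor. Obese rats carried it on both chromosomes in every cell, while the lean rats were heterozygous and not free of it. No obese rat received oil alone and no lean rat received testosterone, so that obesity and testosterone cannot be told apart in the second cohort. Injection and cohort cannot be told apart between the cohorts. In both cohorts obesity came with the fa/fa genotype, so obesity and the receptor defect cannot be told apart. An obesity contrast below compares both together.

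Abundance was used as deposited, in TPM (a unit of relative transcript abundance with sequencing depth and transcript length divided out), which does not keep how many reads a value rests on. A library held 14968 to 16860 genes above 0 TPM, and the lowest number, that of lean control rat 14, lay below the other 19. Transthyretin (Ttr) alone took 31.2 to 39.3% of the TPM of the untreated rats and 25.8 to 30.5% of the injected rats. All 10 markers of choroid plexus epithelium could be named, and 9 of them were abundant in every library, while Otx2 lay at 7.85 TPM in 1 obese rat and at up to 85.9 TPM in the others of that group. The single named endothelial marker, Plvap, lay at 39.9 to 60.3 TPM in the untreated rats and at 1.68 to 10.6 TPM in the injected rats, and the 3 named mural cell markers (Rgs5, Myh11 and Tagln) summed to 142 to 244 TPM and to 9.7 to 21.7 TPM. Plvap, Rgs5 and Tagln had symbols only through the list of abundant genes of the untreated cohort, in which they were the higher. Myh11, which no abundance list named, averaged 8.5 TPM in lean and 7.7 TPM in lean control rats, and 9.92 TPM in obese and 4.56 TPM in obese + TT rats.

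The members spanned a wide range of levels, and together they made up 0.492 to 0.587% of all TPM in the lean rats, 0.5 to 0.583% in the obese rats, and, among the injected animals, 0.586 to 0.677% in lean control and 0.618 to 0.677% in obese + TT rats. Slc22a17, a receptor for lipocalin that is named with the organic cation and anion family, had the highest mean over the 20 rats, 1275 TPM, which placed it 55th of all genes. The mitochondrial phosphate carrier Slc25a3 followed with 623 TPM, and then the ADP/ATP carriers Slc25a4 with 572 TPM and Slc25a5 with 469 TPM. The copper carrier Slc31a1 (379 TPM), the sulfate carrier Slc13a4 (298 TPM) and the organic anion polypeptide Slco1a2 (251 TPM) were the next 3 by this mean. Their order differed by group: Slco1a2 lay above Slc13a4 in the lean rats (230 and 209 TPM), and Slc13a4 above Slc31a1 in the obese + TT rats (444 and 409 TPM). At the other end were Slc9a3r2, Slc6a17 and Slc22a7 with 12.9, 5.66 and 1.79 TPM, and these 3 entered the list only through the study's lists of changed genes. The other 35 were named through a list of abundant genes of a cohort, 26 of them in both cohorts, 5 in the untreated cohort only and 4 in the injected cohort only. Ttr, at a mean of 340007 TPM in lean rats, was named through the injected list only. The untreated list as available here thus did not hold every abundant gene. In the lean rats Slc35b1, at 43.3 ± 1.93 TPM (SD, n = 6), was the least abundant member that reached the untreated list, and Slc24a4, at 36.5 ± 4.51 TPM (SD, n = 6), lay just outside it. In the lean control rats Slc18b1 at 49.3 ± 1.84 TPM (SD, n = 4) was just inside the list of the injected cohort and Slc39a13 at 48.3 ± 5.38 TPM (SD, n = 4) just outside.

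**Figure D1:**
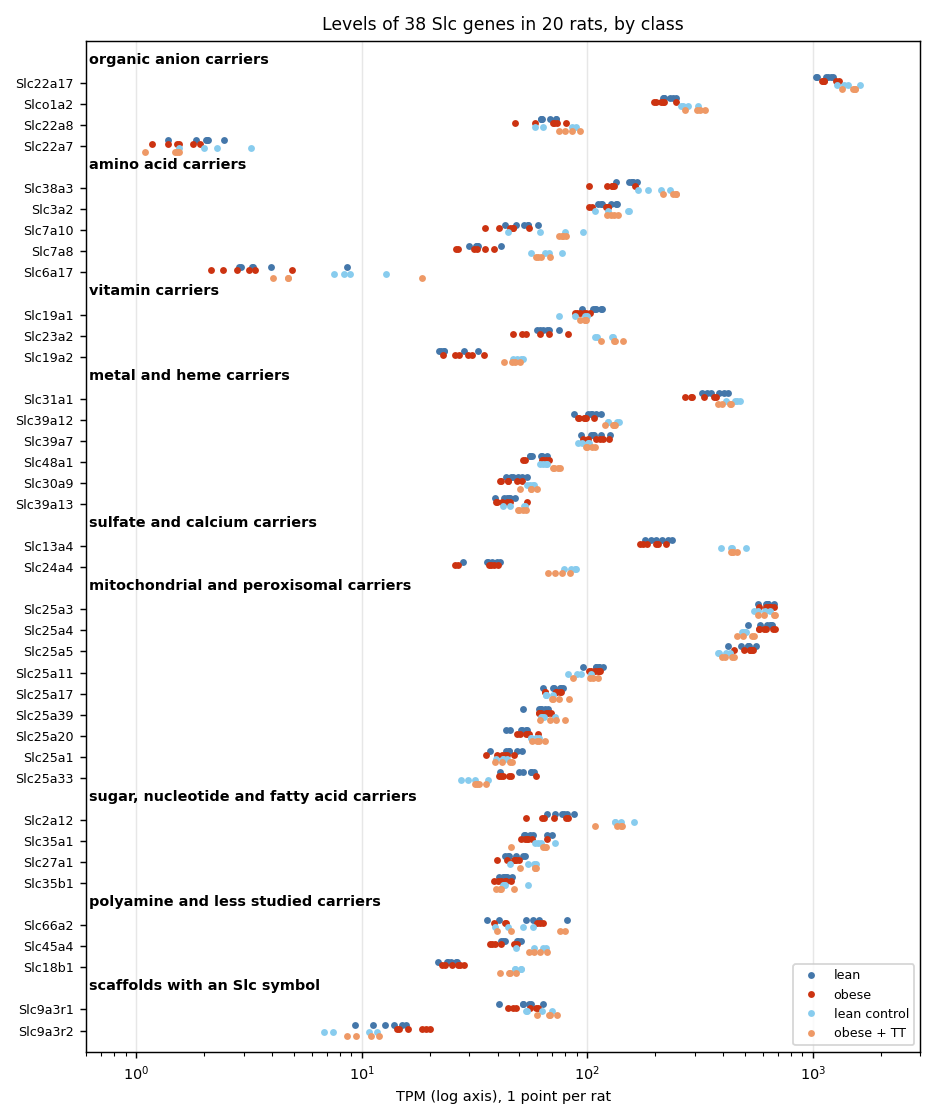
TPM of each of the 38 members in the 20 rats, on a log axis, with 1 point per rat, rows grouped by what the member carries and ordered by mean level, and colour for the group. Slc22a17 lies above all other members in every rat and Slc22a7 at 1.09 to 3.23 TPM. The points of both cohorts separate for several members, such as Slc13a4, Slc23a2 and Slc2a12, which were named in both cohorts. Those of Slc24a4 also separate, but it was named through the injected cohort, where it was the higher. Of all genes tested, 44.8% had groups apart between the cohorts in lean rats and 45.8% in obese rats.

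The first question was whether these carriers differed between the 6 obese and the 6 lean untreated rats. The study's own test, DESeq2 on counts, listed changed genes in this contrast, while the test used here was limma on TPM. No member was called at an adjusted p under 0.05 by limma (Benjamini-Hochberg adjustment, as throughout) over 15176 genes. Of all genes tested 0% were called, which holds for this test only. At an unadjusted p under 0.05 stood 4 of the 37 members whose symbol did not come from this contrast, all 4 of them lower in obese rats, and 9.66% of all genes tested stood there, 5.91% as higher and 3.75% as lower. Mean log2 levels were higher in the obese rats for 10 of the 37 and lower for 27, with a median log2 difference of -0.08 beside 0.02 over all genes. The share of all genes with higher or lower means was not counted, so such direction counts, here and below, are descriptions only. None of the 38 had groups that did not overlap (0.54% of all genes). The 4 were the folate carrier Slc19a1, the glutamine carrier Slc38a3, the copper carrier Slc31a1 and the organic anion carrier Slc22a7.

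Slc38a3, the sodium-coupled glutamine carrier that exchanges protons, was the most abundant of the amino acid carriers. It ranged over 135 to 166 TPM (median 158) in the lean rats and 101 to 163 TPM (median 128) in the obese rats. All but 1 of the obese rats lay below the lowest lean rat, and the remaining obese rat lay within the lean range. The difference was -0.27 on the log2 scale (standard error 0.09, limma p = 0.00986, adjusted p = 0.354; exact two-sided permutation p = 0.0238). The other 4 amino acid carriers also had lower means in obese rats, though none had an unadjusted p under 0.05. The widest of these intervals was that of Slc6a17, a vesicular carrier of neutral amino acids best known from neurons, at -0.87 to 0.23. Slc3a2, the heavy chain that brings the light chains Slc7a8 and Slc7a10 to the membrane, was at 123 ± 10.5 TPM (SD, n = 6) and 116 ± 10.3 TPM (SD, n = 6), with a 95% interval of -0.24 to 0.07 for the log2 difference. For Slc7a10, a carrier of small neutral amino acids, the log2 difference was -0.22 (-0.44 to 0.00), and for Slc7a8, a carrier of larger ones, -0.09 (-0.31 to 0.14).

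Slc19a1, the reduced folate carrier, was the most abundant of the vitamin carriers in the untreated rats, whereas in the injected rats Slc23a2 was. It stood at 95.1 to 117 TPM (median 109) in the lean rats and 88.4 to 102 TPM (median 95.04) in the obese rats. The groups overlapped, with 3 obese rats within the range of the lean ones. Obese rats differed by -0.19 on the log2 scale (standard error 0.06, limma p = 0.00682, adjusted p = 0.317; exact two-sided permutation p = 0.0108), a mean that was lower by 12.5%. The ascorbate carrier Slc23a2 and the thiamine carrier Slc19a2 had log2 differences of -0.14 (-0.39 to 0.11) and 0.18 (-0.07 to 0.42), in opposite directions and each with an interval across 0.

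Slc31a1 brings copper into the cell and was the most abundant of the metal and heme carriers. Its levels were 323 to 419.9 TPM (median 369) in the lean rats and 272 to 372 TPM (median 310.3) in the obese rats. Below the lowest lean rat lay 3 of the 6 obese rats, and the other 3 were within the lean range. Between the means of log2 levels lay -0.22 (standard error 0.09, limma p = 0.0296, adjusted p = 0.462; exact two-sided permutation p = 0.0563). The zinc carriers Slc39a7, Slc39a12, Slc39a13 and Slc30a9 had log2 differences of 0.02, -0.09, -0.00 and -0.10, none with an unadjusted p under 0.05. The heme carrier Slc48a1 differed by 0.01 (-0.16 to 0.18).

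Slc22a7, a carrier of organic anions, was the lowest member by level. It lay at 1.38 to 2.45 TPM (median 2.05) in the lean rats and 1.17 to 1.91 TPM (median 1.53) in the obese rats, and the ranges overlapped. Its log2 difference was -0.33 (standard error 0.15, limma p = 0.0498, adjusted p = 0.516; exact two-sided permutation p = 0.0541). At this level, the pseudocount of 0.1 TPM makes the fold change slightly smaller than the ratio of TPM. Slc22a17 stood at 1038 to 1230.4 TPM (median 1155) in the lean rats and 1098 to 1305 TPM (median 1124) in the obese rats, with a log2 difference of 0.04 (-0.10 to 0.18). The organic anion carriers Slc22a8 and Slco1a2 differed by -0.02 (-0.25 to 0.22) and -0.09 (-0.22 to 0.05).

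The abundant mitochondrial carriers had narrow intervals. Slc25a3, which imports phosphate, stood at 573 to 669 TPM (median 629) in the lean rats and 577 to 674 TPM (median 637) in the obese rats, and the interval of its log2 difference ran from -0.09 to 0.13. That of Slc25a4 ran from -0.13 to 0.17 and that of Slc25a5 from -0.12 to 0.18. Of the 9 carriers of this class 5 had a higher and 4 a lower mean in obese rats, and the widest difference was that of the pyrimidine nucleotide carrier Slc25a33 (-0.19, -0.41 to 0.03). All 4 carriers of sugars, nucleotides and fatty acids had lower means in obese rats, by -0.04 (Slc35b1, which exchanges ATP and ADP across the endoplasmic reticulum) to -0.17 (Slc2a12, a glucose carrier), again without an unadjusted p under 0.05. Slc2a12 lay at 66.1 to 87.6 TPM (median 77.8) in the lean rats and 53.3 to 82.1 TPM (median 67.9) in the obese rats, with wide overlap.

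The sulfate carrier Slc13a4 lay at 181 to 237 TPM (median 209) in the lean rats and 172 to 222 TPM (median 193) in the obese rats and the sodium, calcium and potassium exchanger Slc24a4 at 28.2 to 40.9 TPM (median 36.955) in the lean rats and 25.9 to 40.2 TPM (median 37.1) in the obese rats, with log2 differences of -0.11 (-0.28 to 0.06) and -0.10 (-0.37 to 0.17). Among the less studied carriers, Slc66a2 had the highest mean of the untreated rats and a wide spread, at 36.03 to 81.4 TPM (median 55.4) in the lean rats and 38.5 to 63.7 TPM (median 51.9) in the obese rats, so that its log2 difference of -0.06 had an interval of -0.46 to 0.33. The polyamine carrier Slc18b1 differed by 0.06 (-0.10 to 0.21) and Slc45a4 by -0.13 (-0.31 to 0.05).

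Slc9a3r1 and Slc9a3r2 are scaffolds that tether membrane transporters to ezrin, and not carriers. Slc9a3r1 lay at 40.4 to 63.8 TPM (median 53.6) in the lean rats and 44.5 to 60.7 TPM (median 52.1) in the obese rats with a log2 difference of -0.02 (-0.25 to 0.21). Slc9a3r2 had a symbol only because it stands in the study's list of genes changed in this contrast, so its values are a description. It lay at 9.33 to 15.6 TPM (median 13.3) in the lean rats and 14.4 to 20.02 TPM (median 17.3) in the obese rats, a mean log2 level higher by 0.41 in obese rats, and the ranges overlapped.

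**Figure D2:**
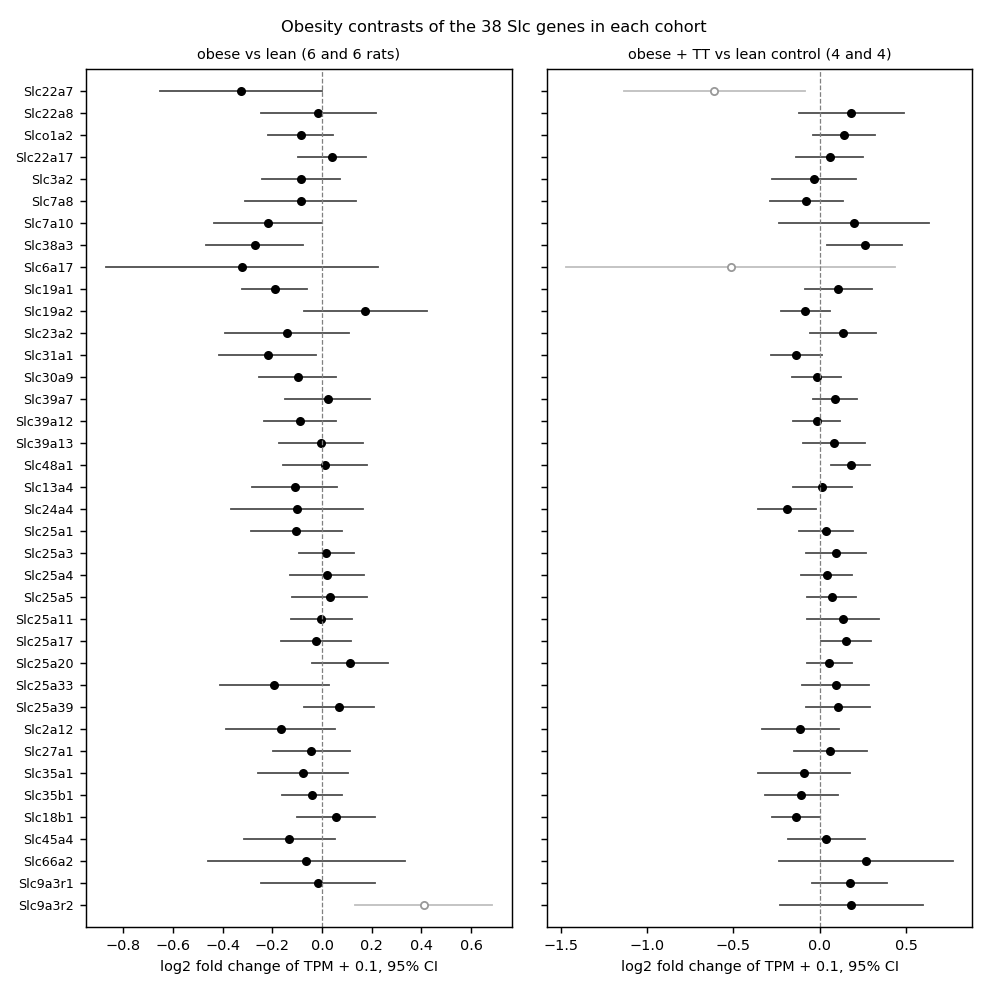
Log2 fold change of TPM + 0.1 with its 95% confidence interval from limma for each member, in the untreated cohort (left, 6 and 6 rats) and in the injected cohort (right, 4 and 4 rats), each on its own axis. Open grey points mark members whose symbol comes only from that contrast's list of changed genes. Most intervals cross 0, and no member was called in either cohort.

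In the injected cohort the 4 obese + TT rats were set against the 4 lean control rats. No member was called here either by limma (adjusted p over 15259 genes, 0% of all genes tested), though the study's own test listed changed genes here too. At an unadjusted p under 0.05 stood 4 of the 36 members that this contrast did not name, 3 higher and 1 lower, beside 7.43% of all genes tested (4.25% higher and 3.19% lower). Means were higher in obese + TT rats for 25 of the 36 and lower for 11, with a median log2 difference of 0.07 beside 0.01 over all genes. The 4 were Slc48a1, Slc38a3, Slc24a4 and Slc25a17. With 4 rats a group the smallest p that an exact permutation test can give is 0.0286.

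Slc48a1, which moves heme out of lysosomes into the cytosol, had groups that did not overlap, the only one of the 38 members (4.02% of all genes tested had such groups, 2.37% as higher and 1.66% as lower). It stood at 63.5, 61.7, 66.5 and 65.6 TPM in the lean control rats and 75.5, 74.3, 70.5 and 71.1 TPM in the obese + TT rats. The lowest obese + TT value exceeded the highest lean control value. The log2 difference was 0.18 (standard error 0.05, limma p = 0.00549, adjusted p = 0.518; exact two-sided permutation p = 0.0286). The globins Hba-a1, Hba-a2 and Hbb were at an unadjusted p under 0.05 as higher in obese rats, and Hba-a1 and Hba-a2 in obese + TT rats. The sum of the 4 named erythroid markers, these and Slc4a1, ran from 2168 to 5768 TPM (lean control) and from 4799 to 8388 TPM (obese + TT), and the part of these transcripts in the Slc48a1 difference was not tested. At an unadjusted limma p under 0.05 in the injected cohort were also Glul (140 TPM in obese + TT and 124 TPM in lean control rats, adjusted p = 0.543), Cd74 (45.1 and 68.5 TPM, adjusted p = 0.627) and Tagln (1.97 and 3.5 TPM, adjusted p = 0.51), none of them called. Gja1 and Myh11, whose symbols came from the list of genes changed in this contrast, averaged 3.19 against 1.91 TPM and 4.56 against 7.7 TPM. In the untreated cohort the other markers named by abundance at such a p were Cd74 (182 TPM in obese and 158 TPM in lean rats, limma adjusted p = 0.415) and the epithelial bicarbonate carrier Slc4a5 (358 and 411.5 TPM, limma adjusted p = 0.438), again not called. Col1a1 and Slc4a1, named only through a list of changed genes, averaged 7.23 and 0.48 TPM in obese and 4.92 and 0.18 TPM in lean rats. Slc4a1 averaged 0.71 TPM in obese + TT and 0.22 TPM in lean control rats. The part of these markers in the members' differences was not tested. In the untreated rats, where the erythroid sum was 3105 to 5471 TPM in lean and 4052 to 7019 TPM in obese rats, Slc48a1 lay at 55.8 to 66.5 TPM (median 59.7) in the lean rats and 52.1 to 67.8 TPM (median 63.2) in the obese rats.

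Slc38a3 was at 232, 186, 168 and 213 TPM in the lean control rats and 241, 248, 246 and 216 TPM in the obese + TT rats. Only the lowest obese + TT rat fell within the lean control range. Obese + TT rats were here the higher by 0.26 on the log2 scale (standard error 0.10, limma p = 0.0231, adjusted p = 0.605; exact two-sided permutation p = 0.0571). The obesity contrasts of both cohorts were compared in a fit of all 20 rats. For Slc38a3 they differed by 0.53 on the log2 scale (standard error 0.14, limma adjusted p = 0.325), which was not called. At an unadjusted p under 0.05 in this test of the difference were also Slc19a1 (0.30, limma adjusted p = 0.445) and Slco1a2 (0.23, limma adjusted p = 0.563), so 3 of the 35 members named by abundance beside 8.36% of all genes (limma; 0% of genes were called). Slc19a1 itself was at 99.97, 97.3, 75.1 and 88.6 TPM in the lean control rats and 97.5, 97.8, 99.1 and 92.6 TPM in the obese + TT rats. All obese + TT rats lay within the lean control range, and its log2 difference was 0.11 (-0.08 to 0.30). Slco1a2 differed by 0.14 (-0.04 to 0.32).

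Slc24a4 was at 87.95, 84.5, 78.9 and 89.1 TPM in the lean control rats and 76.9, 66.7, 71.9 and 83.6 TPM in the obese + TT rats. All but 1 of the obese + TT rats lay below the lowest lean control rat. On the log2 scale they differed by -0.19 (standard error 0.08, limma p = 0.0315, adjusted p = 0.639; exact two-sided permutation p = 0.0571). Slc13a4, with which it was grouped, was at 433, 437, 390.3 and 504 TPM in the lean control rats and 437, 434, 463 and 442 TPM in the obese + TT rats, and the interval of its log2 difference ran from -0.16 to 0.18.

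Slc25a17, which carries coenzyme A and related cofactors into peroxisomes, was at 70.2, 65.7, 65.6 and 65.3 TPM in the lean control rats and 70.1, 82.6, 74.96 and 69.7 TPM in the obese + TT rats. The lean control rat with the highest level exceeded 2 of the obese + TT rats. The log2 difference was 0.15 (standard error 0.07, limma p = 0.04, adjusted p = 0.668; exact two-sided permutation p = 0.0857). All 9 carriers of the mitochondrial and peroxisomal class had higher means in the obese + TT rats, by 0.04 (the citrate carrier Slc25a1) to 0.15 (Slc25a17) on the log2 scale. The 8 other than Slc25a17 had intervals across 0, and whether the class moved as a whole was not tested. Slc25a3 was at 547, 569, 611 and 646 TPM in the lean control rats and 607, 678, 674 and 573 TPM in the obese + TT rats, with a log2 difference of 0.09 (-0.08 to 0.27).

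Copper, sugar and the other leading carriers did not separate the groups. Slc31a1 was at 474, 461, 411 and 450.2 TPM in the lean control rats and 432, 379, 428 and 397 TPM in the obese + TT rats, a log2 difference of -0.14 (-0.28 to 0.01). Slc2a12 was at 141, 133, 132 and 161 TPM in the lean control rats and 135, 108, 143 and 141 TPM in the obese + TT rats, with -0.11 (-0.34 to 0.11). Slc22a17 was at 1382, 1436, 1277 and 1622 TPM in the lean control rats and 1503, 1543, 1544 and 1345 TPM in the obese + TT rats, with 0.06 (-0.14 to 0.25). These intervals all crossed 0. Slc66a2 was at 44.6, 57.6, 38.9 and 51.7 TPM in the lean control rats and 39.6, 79.3, 75.7 and 45.7 TPM in the obese + TT rats, a pair of high and a pair of low values among the obese + TT rats, with 0.27 (-0.24 to 0.77). Slc9a3r1 was at 62.8, 53.9, 53.5 and 69.8 TPM in the lean control rats and 67.9, 68.2, 73.7 and 59.9 TPM in the obese + TT rats, with 0.17 (-0.05 to 0.39), and its relative Slc9a3r2 at 11.6, 6.80, 7.42 and 10.8 TPM in the lean control rats and 9.38, 11.9, 8.63 and 11.0 TPM in the obese + TT rats, with 0.18 (-0.23 to 0.60).

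Slc22a7 and Slc6a17 had symbols only because they stand in the study's list of genes changed in this contrast, so their values are a description without a test. Slc22a7 was at 1.55, 3.23, 2.28 and 2.00 TPM in the lean control rats and 1.49, 1.52, 1.55 and 1.09 TPM in the obese + TT rats. All obese + TT rats were at or below the lowest lean control rat. Slc6a17 was at 12.8, 7.55, 8.85 and 8.30 TPM in the lean control rats and 4.71, 4.71, 18.5 and 4.05 TPM in the obese + TT rats. All but 1 of the obese + TT rats were below every lean control rat, and the remaining one, rat 19, was above all of them. No neuronal marker could be named in these data, so neuronal RNA could not be checked beside Slc6a17.

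**Figure D3:**
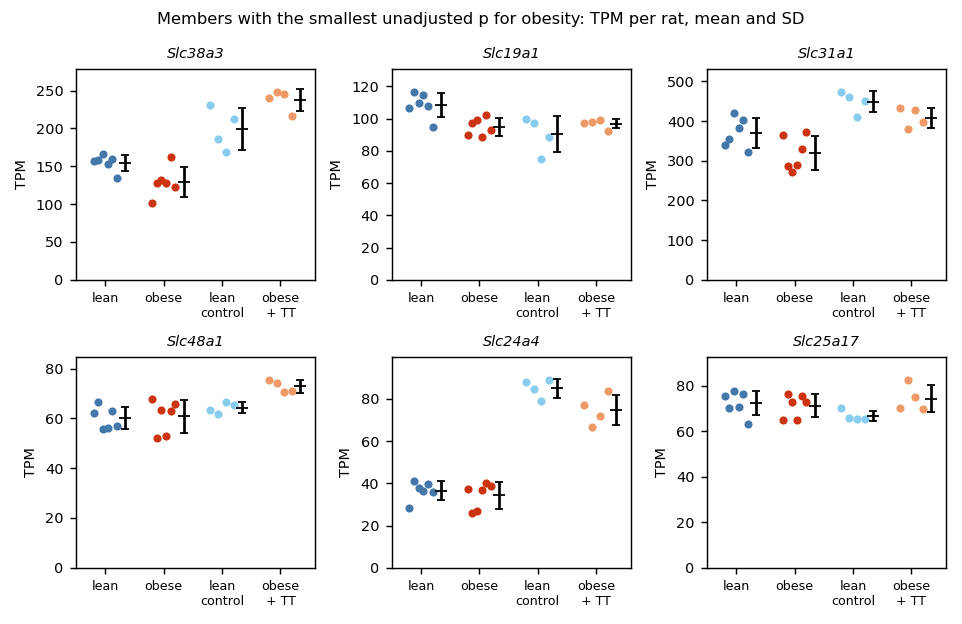
TPM per rat of the 6 members with the smallest unadjusted p in either obesity contrast among those the list of changed genes did not name, leaving out the low Slc22a7. Each panel starts at 0 and shows 1 point per rat for the lean, obese, lean control and obese + TT groups, with the mean and SD beside the points. Slc38a3 is lower in most obese rats of the untreated cohort and higher in most obese + TT rats, and Slc48a1 separates in the injected cohort.

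Levels across all 4 groups were then compared between the cohorts, lean control against lean and obese + TT against obese, which share no rat. Members that had reached the list of abundant genes in only 1 cohort were chosen by their level in that cohort, which bears on the difference, so tests are given for the 26 that were in both lists. Of these, 15 were called in lean rats, 11 higher and 4 lower in the injected cohort, beside 58.2% of all genes tested (41.7% higher and 16.5% lower; limma, adjusted p under 0.05), and 9 had groups that did not overlap (44.8% of all genes, 34% higher and 10.7% lower). In obese rats 18 were called, 16 higher and 2 lower, beside 58.1% (41.7% and 16.4%), and 13 had groups apart (45.8%, 34.1% and 11.7%). These are 57.7% of the 26 in lean rats, close to the background, and 69.2% in obese rats, and whether the latter differs from the background was not tested. The median of all genes was shifted by 0.24 and 0.25 on the log2 scale. With the libraries scaled by median ratios, which took this shift to near 0, 3 members were higher and 8 lower in lean rats (background 59.2%, 31.9% higher and 27.3% lower) and 8 higher and 7 lower in obese rats (57.5%, 30.5% and 27%). Between these scales the sign of the difference turned for 7 of the 26 in lean and 6 in obese rats, so directions are given below only for members called on both.

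Called in both cohort comparisons in the same direction were 13 of the 26, 11 higher and 2 lower, beside 49% of all genes. On both scales 5 of the 26 were called so, 3 higher and 2 lower, beside 39% of all genes (26.2% higher and 12.8% lower). The sulfate carrier Slc13a4, the ascorbate carrier Slc23a2 and the glucose carrier Slc2a12 were higher in the injected cohort, and the ADP/ATP carriers Slc25a4 and Slc25a5 lower. They were picked out after their values were seen. Their promoters, 250 bases before to 50 after the start of transcription, are shown because these members were called in both cohort comparisons on both scales, 3 as higher and 2 as lower. They are RefSeq sequences of the rat build GRCr8, a later build than the Rnor_6.0 of the expression data, and capitals mark the GC box GGGCGG on either strand.
Slc13a4: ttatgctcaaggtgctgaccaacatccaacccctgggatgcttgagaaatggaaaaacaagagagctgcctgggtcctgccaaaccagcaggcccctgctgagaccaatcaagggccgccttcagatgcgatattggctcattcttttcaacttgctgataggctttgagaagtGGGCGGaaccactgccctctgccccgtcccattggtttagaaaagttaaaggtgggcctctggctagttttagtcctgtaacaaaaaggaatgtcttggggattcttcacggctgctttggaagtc
Slc23a2: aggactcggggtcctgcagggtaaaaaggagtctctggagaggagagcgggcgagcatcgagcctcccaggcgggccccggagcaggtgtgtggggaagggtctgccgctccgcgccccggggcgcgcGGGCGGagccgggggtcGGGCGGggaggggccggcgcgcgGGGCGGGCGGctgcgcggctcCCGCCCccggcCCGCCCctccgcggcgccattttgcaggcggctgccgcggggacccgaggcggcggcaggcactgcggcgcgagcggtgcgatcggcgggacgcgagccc
Slc2a12: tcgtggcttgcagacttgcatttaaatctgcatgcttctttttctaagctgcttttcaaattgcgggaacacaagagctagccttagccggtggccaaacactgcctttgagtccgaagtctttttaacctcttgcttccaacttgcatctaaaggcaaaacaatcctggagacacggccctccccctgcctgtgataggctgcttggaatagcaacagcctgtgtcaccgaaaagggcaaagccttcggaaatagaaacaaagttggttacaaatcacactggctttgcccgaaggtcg
Slc25a4: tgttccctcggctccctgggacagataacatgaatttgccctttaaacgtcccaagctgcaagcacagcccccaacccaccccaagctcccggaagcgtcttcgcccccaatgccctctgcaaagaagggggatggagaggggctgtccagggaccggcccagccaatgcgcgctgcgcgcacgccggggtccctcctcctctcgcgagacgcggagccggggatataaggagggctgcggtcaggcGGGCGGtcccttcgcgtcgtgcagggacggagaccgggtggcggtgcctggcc
Slc25a5: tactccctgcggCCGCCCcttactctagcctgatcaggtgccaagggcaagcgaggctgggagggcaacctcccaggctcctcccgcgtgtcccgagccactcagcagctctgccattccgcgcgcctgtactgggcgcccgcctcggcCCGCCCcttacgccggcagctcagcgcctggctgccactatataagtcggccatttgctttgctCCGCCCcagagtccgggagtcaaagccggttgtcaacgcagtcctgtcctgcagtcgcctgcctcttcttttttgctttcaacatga
On GRCr8 these lie at chr4:64955937-64956236 (minus strand), chr3:139847294-139847593 (minus), chr1:24677166-24677465 (minus), chr16:52805271-52805570 (plus) and chrX:120897366-120897665 (plus). Slc23a2 held 6 overlapping or separate copies of the box, Slc25a5 3, Slc13a4 and Slc25a4 1 each and Slc2a12 none. Over the 32 members whose promoter was found by symbol, 25 (78.1%) held the box, beside 34.9% of the promoters of 27457 genes, and the median GC content was 63.5% beside 52.3%. The androgen receptor's AGAACA hexamer was in 2 of the 32 (6.2%, beside 20.1%), those of Slc6a17 and Slc25a1. The STAT motif TTCNNNGAA was in none (8.7%) and the E-box CACGTG in 2 (6.2%, beside 6.7%). Both strands were searched, and a match is a description of letters only. Most members were named because they were abundant, while the 27457 genes were not chosen by level. The part of level and of GC content in these shares was not tested. Promoters of Slc38a3, Slc48a1, Slco1a2, Slc35b1, Slc18b1 and Slc45a4 were not analysed here.

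Slc13a4 takes up sulfate with sodium. In the levels given above the lowest injected value, 390.3 TPM, was above the highest untreated value, 237 TPM. The means were 209 ± 21.6 TPM (SD, n = 6) in lean and 441 ± 47.036 TPM (SD, n = 4) in lean control rats, a log2 difference of 1.08 (standard error 0.09, limma adjusted p = 9.86e-07). In obese and obese + TT rats they were 194 ± 19.2 TPM (SD, n = 6) and 444 ± 12.999 TPM (SD, n = 4), a log2 difference of 1.20 (standard error 0.07, limma adjusted p = 2.55e-07). After median ratio scaling the differences were 0.87 and 0.98.

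Slc23a2 takes up ascorbate with sodium and is known for bringing vitamin C into the brain through this tissue. It was at 59.7 to 74.96 TPM (median 65.1) in the lean rats and 46.7 to 81.8 TPM (median 57.6) in the obese rats. In the injected cohort it was at 129, 110.3, 108 and 129.9 TPM in the lean control rats and 133, 115, 132 and 144 TPM in the obese + TT rats. Each value of the injected rats exceeded all untreated values. Its log2 difference between cohorts was 0.86 in lean rats (standard error 0.08, limma adjusted p = 2e-06) and 1.14 in obese rats (standard error 0.14, limma adjusted p = 2.95e-05), and 0.65 and 0.92 after scaling.

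For Slc2a12, whose values stand above, the ranges of the cohorts did not overlap either. The log2 difference was 0.88 in lean rats (standard error 0.08, limma adjusted p = 2.86e-06) and 0.94 in obese rats (standard error 0.12, limma adjusted p = 5.37e-05), and 0.67 and 0.71 after scaling.

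Slc25a4 and Slc25a5 exchange cytosolic ADP for mitochondrial ATP, Slc25a4 being the isoform of muscle and heart and Slc25a5 that of many other tissues. Slc25a4 was at 516 to 659.7 TPM (median 638) in the lean rats and 576 to 682 TPM (median 615) in the obese rats. It was at 483, 492.8, 505 and 499 TPM in the lean control rats and 489.5, 539.9, 549 and 462 TPM in the obese + TT rats, and every injected rat lay below its untreated counterparts of the same genotype. Slc25a5 was at 422 to 560.1 TPM (median 515) in the lean rats and 445 to 540.3 TPM (median 527) in the obese rats, and at 386, 379.5, 428 and 414 TPM in the lean control rats and 406, 438, 446 and 396 TPM in the obese + TT rats, with overlap in each comparison. The log2 differences of Slc25a4 were -0.31 in lean rats (adjusted p = 0.00296) and -0.29 in obese rats (adjusted p = 0.00417), and those of Slc25a5 were -0.32 (adjusted p = 0.00356) and -0.28 (adjusted p = 0.00336), all from limma. After scaling they were -0.52 and -0.51 for Slc25a4 and -0.53 and -0.50 for Slc25a5. The sequences of these genes are similar and the division of shared reads between them was not tested. On the scaled values 5 more were called lower in both comparisons, Slc25a3, Slc25a11, Slc25a17, Slc39a7 and Slc19a1, but none of these 5 was called in both on the deposited TPM.

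**Figure D4:**
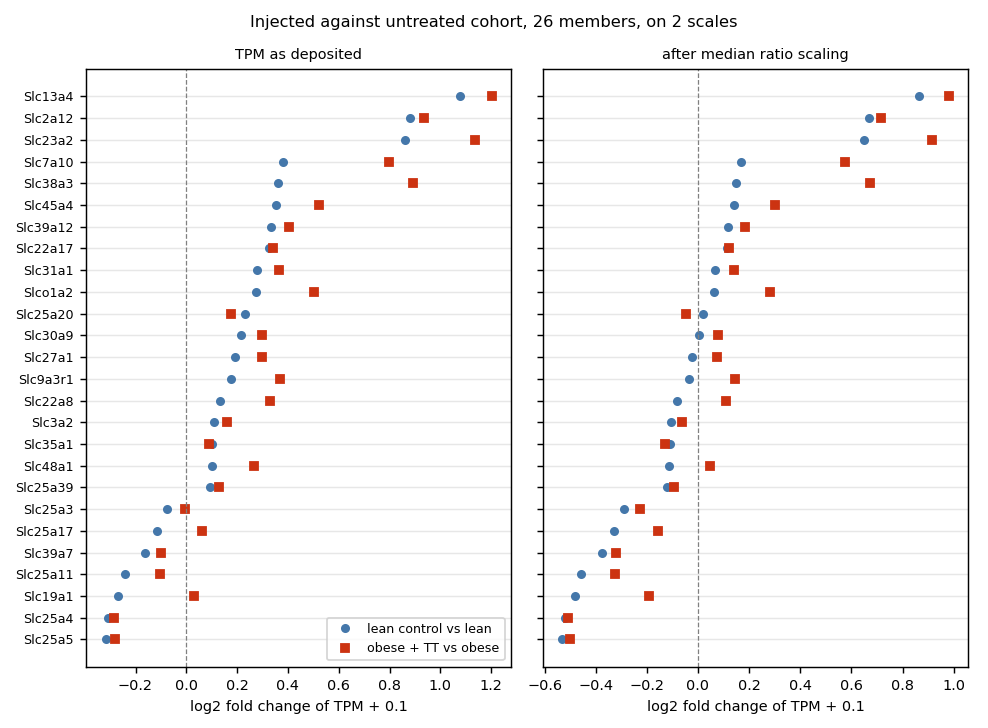
Log2 fold change of the injected against the untreated cohort for the 26 members in both lists of abundant genes, for lean control against lean (circles) and obese + TT against obese (squares), on TPM as deposited (left) and after median ratio scaling (right). Slc13a4, Slc2a12 and Slc23a2 lie at the high end and Slc25a4 and Slc25a5 at the low end on both scales, while the middle members change side.

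Members of only 1 list are given as values. Slc24a4 averaged 36.5 ± 4.51 TPM (SD, n = 6) in lean and 85.1 ± 4.58 TPM (SD, n = 4) in lean control rats. Slc7a8 averaged 33.6 ± 4.01 TPM (SD, n = 6) and 66.5 ± 8.90 TPM (SD, n = 4). For the thiamine carrier Slc19a2 the means were 25.3 ± 4.38 TPM (SD, n = 6) and 49.6 ± 2.24 TPM (SD, n = 4), and for Slc18b1 24.6 ± 1.76 TPM (SD, n = 6) and 49.3 ± 1.84 TPM (SD, n = 4). These 4 were named through the injected cohort, where they were the higher. Slc25a33, named through the untreated cohort, averaged 52.1 ± 6.29 TPM (SD, n = 6) and 31.2 ± 3.74 TPM (SD, n = 4). Slc9a3r2, named through the contrast of obese and lean rats, averaged 17.1 ± 2.42 TPM (SD, n = 6) in obese rats, while the obese + TT mean was 10.2 ± 1.49 TPM (SD, n = 4).

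Other transcripts moved with the cohort beside these members. Of the 9 epithelial markers that stood in both lists of abundant genes, 8 were called higher in lean control than in lean rats and 7 in obese + TT than in obese rats, beside the 41.7% of all genes in each, and 7 in each after median ratio scaling (31.9% and 30.5% of all genes). The remaining epithelial marker, Ttr, was named through the injected cohort and had the lower means there. It averaged 340007 TPM in lean and 289017 TPM in lean control rats. In obese and obese + TT rats its means were 347007 and 272901 TPM. The leukocyte markers Cd74 and Lyz2, which stood in both lists, were called lower in both comparisons on both scales, beside 12.8% of all genes. In the single comparisons 16.5% and 16.4% of all genes were called lower on TPM as deposited, and 27.3% and 27% after median ratio scaling. Cd74 and Lyz2 summed to 415 to 546 TPM in the untreated and to 95.2 to 284 TPM in the injected rats. The globins Hba-a1, Hba-a2 and Hbb and the astrocyte marker Glul were in both lists too, and none was called on TPM as deposited. After median ratio scaling limma called Hba-a1, Hba-a2 and Glul lower in lean control than in lean rats (27.3% of all genes). None was called in obese + TT against obese rats. The remaining markers were named through 1 cohort or a list of changed genes, so only their values are given. Dcn, named through the untreated cohort, averaged 92.5 TPM in lean and 10.9 TPM in lean control rats, and Pdgfra, named through the injected cohort, 25.4 and 65.1 TPM. Col1a1, named through the contrast of obese and lean rats, averaged 4.92 and 0.49 TPM. Of the astrocyte markers, Glul was in both lists and averaged 131 and 124 TPM, and Gja1, named through a list of changed genes, 6.39 and 1.91 TPM. No marker of oligodendrocytes or ependyma could be named. In whole tissue, fewer cells of a type and less RNA per cell cannot be told apart, and the part of the cell makeup in the differences of the members was not tested. Injection, and in obese rats testosterone, cannot be told apart from the cohort.

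Of 40 partner and other transport genes that were listed with the members, 6 could be named: the folate receptor Folr1, the mitochondrial pore Vdac1, the efflux pump Abcc1, the scaffold partner ezrin (Ezr), and the polyamine enzymes Sat1 and Odc1. None was at an unadjusted p under 0.05 in either obesity contrast. Between the cohorts, 4 of them stood in both lists of abundant genes and all 4 were called by limma on TPM as deposited in both comparisons, beside 49% of all genes, Folr1, Vdac1 and Ezr as higher and Odc1 as lower in the injected cohort. After median ratio scaling Ezr was still called higher and Odc1 lower in both, Folr1 was called higher in obese rats and not in lean rats, and Vdac1 was not called and its difference turned to -0.01 and -0.03. Sat1, named through the untreated cohort, averaged 62.9 TPM in lean and 44.0 TPM in lean control rats. Abcc1, named through the injected cohort, was at 16.3 ± 2.06 TPM (SD, n = 6) in lean and 63.1 ± 4.3 TPM (SD, n = 4) in lean control rats.

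**Figure D5:**
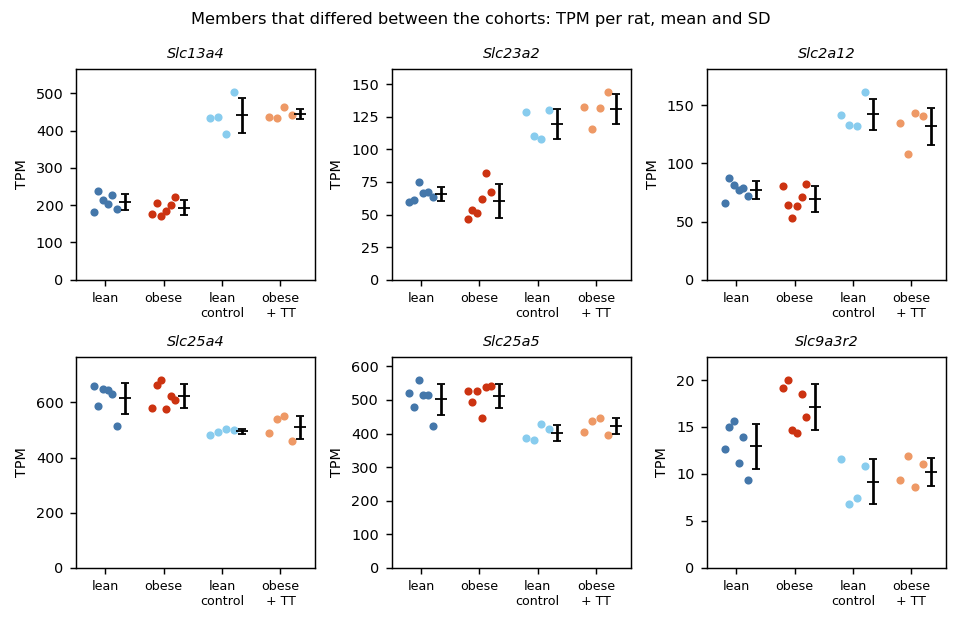
TPM per rat of Slc13a4, Slc23a2, Slc2a12, Slc25a4, Slc25a5 and Slc9a3r2, each panel from 0, with 1 point per rat and the mean and SD beside each group. The injected rats lie above the untreated rats for Slc13a4, Slc23a2 and Slc2a12 without overlap and mostly below them for Slc25a4 and Slc25a5. They also lie mostly below them for Slc9a3r2. Its symbol came only from the list of genes changed in obese against lean rats, so its panel is a description.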

How the data were processed

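The authors deposited 1 table per rat with TPM and FPKM for 32883 Ensembl genes. Per the labels and methods, paired-end reads were mapped to Rnor_6.0 with STAR 2.7.9a, whose gene counts were used with DESeq2 for the study's own tests. The submitters' processing notes also name RSEM 1.3.3 (and DESeq2 as 3.16), and whether RSEM made the TPM is not given in the sources used here. The deposited TPM were used and the FPKM, in which depth and length are likewise divided out, were not. Symbols were read from the study's supplementary lists, whose copies here are shortened.

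Values were tested as log2(TPM + 0.1) with limma 3.58.1 (R 4.3.3; eBayes with trend) on the groups of 1 comparison, leaving out genes whose mean was under 0.1 TPM, with Benjamini-Hochberg adjustment over all of them and a call at an adjusted p under 0.05. The test was checked on simulated data. Members also had an exact two-sided permutation test per obesity contrast (73 member comparisons, not adjusted further). It was left out in the contrast whose list of changed genes alone gave a member its symbol. P-values rest on the spread between rats within groups. In the comparisons between cohorts each condition was a single cohort, so they do not measure how cohorts vary. The reads behind each TPM value are unknown, so no counting interval is given. The alternatives were a pseudocount of 1, other filters, no trend, the robust option, TPM without Ttr, median ratio scaling, a fit of all rats and leaving out each rat.

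Given in full are members with an unadjusted p under 0.05 or groups apart in an obesity contrast, the most abundant member of each class and those named only through a list of changed genes. The members, lists and tests were chosen with earlier results of these data known. The promoter used is the first listed for a gene. Figures were made with Python 3.11.15 and matplotlib 3.10.9.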

Additional observations from a re-analysis of the deposited data

Results flagged for a closer look

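In 11 of 152 member and group combinations, 1 rat lay far from the others of its group by Dixon's criterion, where chance gives about 1 in 20, or 7.6. Slc6a17 did so 2 times, at 18.45 TPM in obese + TT rat 19 (the other 3 rats 4.05 to 4.71 TPM) and at 8.64 TPM in lean rat 3 (the others 2.84 to 3.96 TPM). Lean rat 6 was lowest for the mitochondrial carriers Slc25a11, at 95.39 TPM (others 109.28 to 116.88), and Slc25a39, at 51.76 TPM (others 61.27 to 66.84); its Ttr share, 39.0%, was the highest of the lean rats, and the part of that share was not tested. Obese + TT rat 20 was lowest for Slc22a7, at 1.09 TPM (others 1.49 to 1.55), and for the fatty acid carrier Slc27a1, at 50.05 TPM (others 58.36 to 59.16). Slc35a1, the carrier of CMP-sialic acid, was at 45.76 TPM in obese + TT rat 17 (others 63.46 to 65.32). High single values were those of Slc7a8 in lean rat 2 (41.47 TPM, others 30.01 to 32.8), Slc25a33 in obese rat 12 (59.25 TPM, others 40.61 to 45.92), Slc25a17 in lean control rat 13 (70.2 TPM, others 65.28 to 65.65) and Slc35b1 in lean control rat 16 (54.84 TPM, others 42.45 to 43.11).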

How the results depend on the processing

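No member was called in either obesity contrast, or in the test of their difference, under any alternative that was run. The number at an unadjusted p under 0.05 ran from 2 to 7 of the 37 members that obese against lean rats did not name (7.51 to 12.4% of all genes), 1 to 7 of 36 in obese + TT against lean control rats (5.3 to 9.71%) and 2 to 5 of 35 for the difference (7.03 to 10.7%). Between the cohorts 11 to 17 of the 26 in both lists were called in lean (48.7 to 65.3% of all genes) and 15 to 18 in obese rats (48.5 to 64.6%), and Slc13a4, Slc23a2, Slc2a12, Slc25a4 and Slc25a5 kept their direction and call in all 18 alternatives of each comparison. Slc38a3 and Slc19a1 stayed at an unadjusted p under 0.05 in all 20 alternatives for obese against lean rats, with log2 differences of -0.34 to -0.20 and -0.23 to -0.17, and Slc48a1 in all 16 for obese + TT against lean control rats (0.15 to 0.20). In limma the unadjusted p was at or above 0.05 in 14 of 20 alternatives for Slc22a7 (up to 0.115), 7 of 20 for Slc31a1 (up to 0.0741), 5 of 16 for Slc38a3 in the injected cohort (up to 0.0612), 7 of 16 for Slc24a4 (up to 0.17, in the fit of all rats) and 8 of 16 for Slc25a17 (up to 0.125, on TPM without Ttr), most of which left out 1 rat. No paired analysis was possible because the rat numbers run through the whole study and no group shares a number with another. Unknown reads per gene limit the statements on low members such as Slc22a7 most.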
